A study of Drosophila melanogaster with 3 samples.

Results

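CG10431 is a Drosophila protein that was mapped as a transcription factor by chromatin immunoprecipitation and sequencing (ChIP-seq), and the peaks described here are those with a summit a short way downstream of a transcript start. A peak belonged to the set where its summit lay 1 to 500 bp downstream of the nearest annotated transcript start and no start on the other strand lay within 500 bp. Of the 3314 peaks that passed the authors' irreproducible discovery rate (IDR) filter, 370 met this rule, 11.2% of the list. They named 359 genes, of which 11 had a pair of such peaks. The material was whole embryos of mixed sex, aged 0 to 12 h, from 1 transgenic line that stably expresses CG10431 with green fluorescent protein fused to its C terminus. There were 3 biological replicates of 1 group, no second condition and no untagged line, and the 1 control alignment set shared by the replicates is not analysed here. The sources used here do not give the promoter that drives the fusion. A free-text label calls the samples input controls, while the assay name and the antibody field describe a ChIP.

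A transcript start is the annotated first base of an RNA. In flies many genes hold RNA polymerase II for a time a short way downstream of the start, and short elements there and at the start itself, such as the initiator, the pause button and the downstream promoter element, are known parts of core promoters. The first bases of most mRNAs are 5′ untranslated region (UTR), followed by coding sequence or by a first intron, which often holds regulatory sites. Genes of ribosomal proteins and translation factors are known for a special initiator, the polypyrimidine TCT initiator, in place of the usual one.

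Of the 370 members, 18 carried the 7-letter sequence TACATGG or its reverse complement within 100 bp of the summit, and 8 of these were among the 20 members of highest signal. The runs below, from the RefSeq copy of the dm6 assembly and read 5′ to 3′ on the strand of the gene, show it near the summit of 6 of them, with the 7 letters in capitals on either strand.
CG3529 (chr3L:9447325-9447353, plus strand): cgcgcacatttCCATGTAgcgatactcat
tna (chr3L:10858636-10858664, plus strand): tgacaaaattcCCATGTAttccaaacaaa
CG32195 (chr3L:18114365-18114393, plus strand): ctagtgcaccaTACATGGgctcagtcggt
ImpE1 (chr3L:8372854-8372882, plus strand): atagacaaacaTACATGGgaaggcagtca
Ank (chr4:129155-129183, minus strand): attggcagatgCCATGTAtgtatatgtat
bol (chr3L:9124953-9124981, minus strand): ttaaactgctgCCATGTAtttttaaactg

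Another 18 members held Motif 1, an element of fly core promoters spelled GGTCACAC, 16 of them in the direction of the gene, and 17 had summits within 100 bp of the start. The capitals in the next runs mark it in 6 of them, chosen to show it on either side of the start.
nmd (chr2L:10303915-10303944, minus strand): tcggagcacctGGTCACACtgtcgtcggtg
Kdm5 (chr2L:5999451-5999480, minus strand): cttcgacgacgGGTCACACtggacacatgt
CG5004 (chrX:17107555-17107584, plus strand): cttaccgcgctGGTCACACtgtcctcttga
Rm62 (chr3R:6008600-6008629, minus strand): gagcccgctgcGGTCACACcaacttctcga
Syx1A (chr3R:24105747-24105776, minus strand): agtgacggcacGGTCACACtcgaaaattgt
lncRNA:roX2 (chrX:11579065-11579094, plus strand): attcgcggcctGGTCACACtaagctagggc

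Of the 15 members at genes of cytosolic ribosomal proteins, 11 had summits within 10 bp of the start. The following runs, chosen from the 12 that hold a match to the TCT initiator there, reach 15 bases upstream of the start and the same number from it onward, and the capitals mark the match, searched as NCTTTNN with every N a C or a T, on the strand of the gene.
RpS4 (chr3L:13041786-13041815, plus strand): caccgcccgcaaatctgCCTTTTCcttttc
RpL35A (chr3R:5467087-5467116, minus strand): tagaggcagccacactatttcctTCTTTTC
RpL7A (chrX:6533242-6533271, minus strand): attggaactgccacttCCTTTCTttttcgt
RpS7 (chr3R:30208928-30208957, minus strand): tcgtggctcgacttCCTTTCCtgtcaaaat
RpS29 (chr3R:9778082-9778111, plus strand): gggtgccatcgctagttCCTTTTCttttcg
RpL5 (chr2L:22536636-22536665, minus strand): aaggccgcactattttcctTCTTTTTgcta

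The data are peak lists: 30000 candidate entries for each replicate, 30000 for the pooled replicates, and the IDR list, which holds the pooled entries of highest signal. Signal is the authors' own value per peak; its scale is not stated, and it was used only within a list. Read depth is unknown, and intervals on shares cover counting error over peaks only. The tests took peaks as units, and the spread between biological replicates is shown by giving the value of each.

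Over the whole 500 bp, CG10431 peaks were called less often downstream of a start than upstream of one. Of 3013 pooled candidates with a one-strand downstream summit, 370 were in the IDR list (12.3%, exact 95% interval 11.1 to 13.5). Upstream it was 819 of 4053 (20.2%, 19 to 21.5), and over all 30000 candidates 3314 were in the list (11%). The odds ratio of downstream to upstream was 0.553 (two-sided Fisher's exact test, p = 5.21e-19). In 50 bp steps the shares were closest next to the start, at 18.1% downstream and 19.5% upstream, and farthest from it the order was the other way, at 15.1% (28 of 186) downstream and 13.5% (28 of 207) upstream. These steps were not tested. In the replicates, the share of downstream candidates among the 3314 strongest entries was 10.6%, 12.2% and 14.7% in replicates 1, 2 and 3. The upstream share was 19.9%, 20.1% and 19.4%. All 3 replicates were lower downstream, with means of 12.5% ± 2.09 and 19.8% ± 0.376 (SD, n = 3). Replicate 1 held the fewest downstream summits among its strongest entries, 308, replicate 2 held 379 and replicate 3 held 476, while the upstream numbers ran from 803 to 816.

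The members crowded towards the start. Summits within 100 bp of the start made up 182 of the 370 (49.2%, 95% interval 44.0 to 54.4), against 945 of the 2643 downstream candidates outside the IDR list (35.8%; odds ratio 1.74, two-sided Fisher's exact test, p = 9.74e-07). The median offset was 107 bp, with quartiles of 33.2 and 258 bp, and 169 bp for the other candidates. In 50 bp steps, the called share of candidates was highest in the first, at 133 of 733 (18.1%, 95% interval 15.4 to 21.1). It was lowest from 301 to 350 bp, at 11 of 216 (5.09%, 2.57 to 8.93). From 451 to 500 bp it was 28 of 186 (15.1%, 10.2 to 21.0), which overlaps the interval of the first step. In replicates 1, 2 and 3, 42.5%, 45.4% and 47.3% of the strongest downstream summits were within 100 bp, against 32.8%, 33.4% and 32.7% of the weaker ones. Among the 1657 strongest IDR peaks the odds ratio was 1.39 and did not pass (Fisher's exact test, p = 0.0531).

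**Figure D1:**
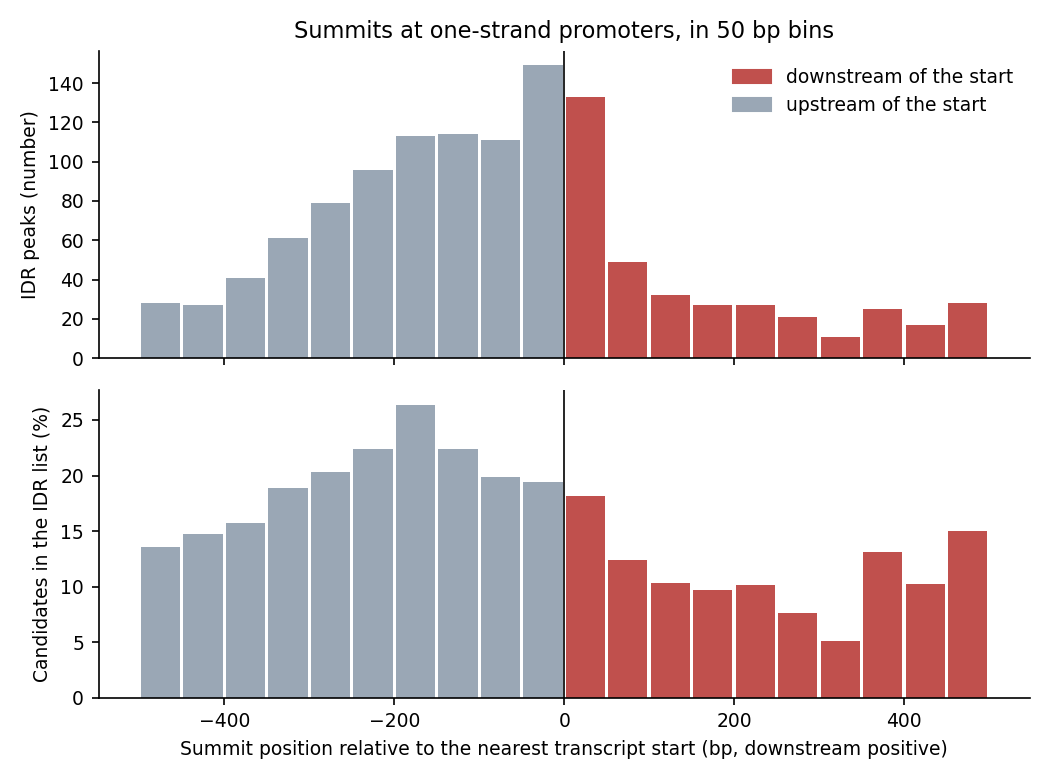
Summits at one-strand promoters by position relative to the nearest start, in 50 bp bins (x axis, bp, downstream positive); the upper bars give the number of IDR peaks and the lower bars the percentage of pooled candidates in the IDR list. Downstream of the start the first bin is the highest, with 133 peaks and 18.1% of candidates, and the share is lowest, 5.09%, from 301 to 350 bp.

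At the edges of the rule, the members of largest offset were at skd (495 bp, signal 414.5), which encodes a Mediator subunit, lncRNA:CR44868 (495 bp, signal 239.5) and omd (494 bp, signal 485.9). Just beyond lay the summits at CG4615 (501 bp, signal 266.7), HnRNP-K (502 bp, signal 241.4) and pAbp (502 bp, signal 186.9). At the other edge, 9 members were 1 bp from the start, among them CG5335 (signal 1013) and RpS23 (signal 376.4), and 6 further IDR summits fell on a start base, among them those of RpS10b, RpL24, RpL37-1 and RpL10. By signal, the last members were at DIP1 (187.3) and Fkbp14 (187.0), and the first candidates outside the list were at pita (186.3) and CG11583 (186.2).

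The position of a summit relative to the start was read in each replicate from the candidate entry nearest to the pooled summit. This choice limits the spread in advance, and 1 entry can serve more than 1 member, as at PlexB in replicate 3. The SD below is thus no test of how well the replicates agree. For 367 members every replicate had a candidate entry within 250 bp, and the SD of the nearest summit over the 3 replicates had a median of 19.98 bp (quartiles 9.66 and 38.6). In 278 of the 367 (75.7%) the summit lay 1 to 500 bp downstream of the same start in all 3 replicates. It reached the start or passed upstream of it in at least 1 replicate in 70 members, of which 61 had a pooled offset of 50 bp or less, and it did so in all 3 replicates in 2 members. RpS4 and Act42A are examples of a small and a large spread, though other members were tighter than RpS4. At RpS4 the offset was 1, 2 and 13 bp in replicates 1, 2 and 3. At Act42A, which encodes a cytoplasmic actin, it was -126, 50 and 129 bp.

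Members were found in all 3 replicates less often than upstream peaks. Among the 3314 strongest entries of every replicate, 202 of 370 members had an entry within 250 bp (54.6%, 95% interval 49.4 to 59.7), against 533 of 819 upstream peaks (65.1%; odds ratio 0.645, two-sided Fisher's exact test, p = 0.000633). This rests on replicate 1: without it, the odds ratio for presence in both other replicates was 0.876 (Fisher's exact test, p = 0.356). Singly, replicates 1, 2 and 3 held 70.8%, 83.2% and 85.4% of the members, and 82.5%, 88.3% and 81.9% of the upstream peaks. Replicate 3 thus held a larger share of members than of upstream peaks, and the others a smaller one. A further 114 members were found in 2 replicates, 52 in 1 and 2 in none.

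Signal was also lower downstream. The pooled median was 259.3 for members and 296.5 for upstream peaks, and 163 members (44.1%) were among the 1657 strongest IDR peaks, against 447 upstream peaks (54.6%). In the replicate lists the downstream and upstream medians were 83.1 and 93.3 in replicate 1, 108.4 and 126.2 in replicate 2, and 83.0 and 93.6 in replicate 3. The log2 ratio of downstream to upstream was -0.17, -0.22 and -0.17, with a mean of -0.19 ± 0.03 (SD, n = 3). All 3 replicates were lower downstream, but an exact sign-flip permutation test over 3 replicates gave p = 0.25 (two-sided), the smallest it can give. With 1657 entries per replicate the mean was -0.09, a difference from the value above that exceeded 1 SD.

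**Figure D2:**
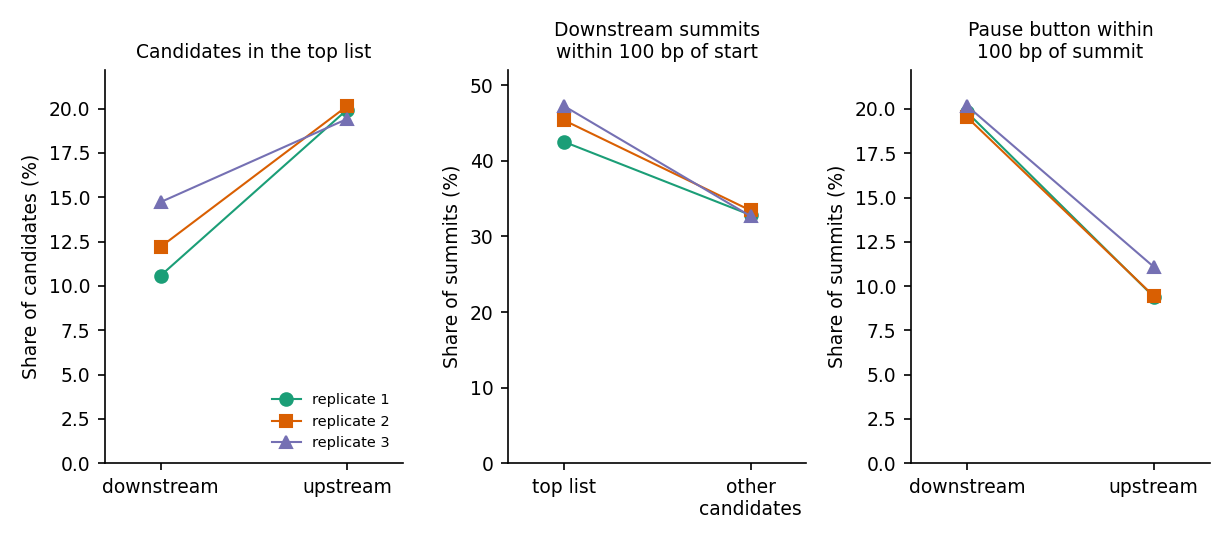
Values in each replicate, 1 line per replicate: the share of candidates among the 3314 strongest entries for downstream and upstream summits, the share of downstream summits within 100 bp of the start in and outside those entries, and the share of downstream and upstream summits with a pause button within 100 bp. All 3 lines slope the same way in each panel, with 10.6% to 14.7% against 19.4% to 20.1% in the first.

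The strongest member was at mrj (FBgn0034091), which encodes a DnaJ-type co-chaperone, at 2R, 16209338 to 16210045. Its summit lay 270 bp downstream of the start in the 5′ UTR. The pooled signal was 4011, the ninth highest of all IDR peaks, and the signal was 1002, 1814 and 1209 in replicates 1, 2 and 3. It ranked 8, 9 and 10 in these lists, with offsets of 267, 270 and 270 bp. The same interval held a second member at mrj, 70 bp from the start with a signal of 526.2.

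CG14478 (2R, 17460672 to 17461220) reached a signal of 2473, with its summit in the first intron, 373 bp from the start. Its signal was 612.5, 1036 and 834.0 in replicates 1, 2 and 3, at ranks 29, 21 and 19. lncRNA:CR31840 (2L, 14023883 to 14024354), a long noncoding RNA gene, followed with 2472 and a summit 24 bp from the start. Its signal was 825.1, 1009 and 642.0 in the same order. Both peaks thus stood among the 30 strongest entries of every replicate.

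Pgant1 (2R, 15513371 to 15513860), which encodes an enzyme that starts O-linked glycosylation, reached 2342 at 65 bp, in coding sequence of the first exon. Its signal was 527.4, 992.2 and 835.8 in replicates 1, 2 and 3. A much lower signal, 1226, was seen at ph-p (X, 2137700 to 2138109, 415 bp), a Polycomb group gene. Its replicate signals were 459.5, 462.3 and 323.9.

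The next 14 by signal were CG3107 (1200), RpS4 (1140), CG3529 (1048), CG15099 (1038), CG5335 (1013), tna (995.1), PNPase (979.3), Rrp45 (958.1), TRAM (952.1), CG32195 (862.0), Cdc27 (833.8), Arl4 (790.7), CG7791 (771.7) and lncRNA:CR46102 (755.7). Of their products, Tna is related to SUMO ligases, PNPase is a polynucleotide phosphorylase, Rrp45 is a subunit of the RNA exosome, Cdc27 is a subunit of the anaphase-promoting complex and Arl4 is a small GTPase. All 20 members of highest signal were found among the strongest entries of every replicate. Only 11 members exceeded a signal of 1000 and 318 (85.9%) were under 500. Members made up 2 of the 20 and 8 of the 100 strongest IDR peaks, and upstream one-strand peaks 4 and 34.

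**Figure D3:**
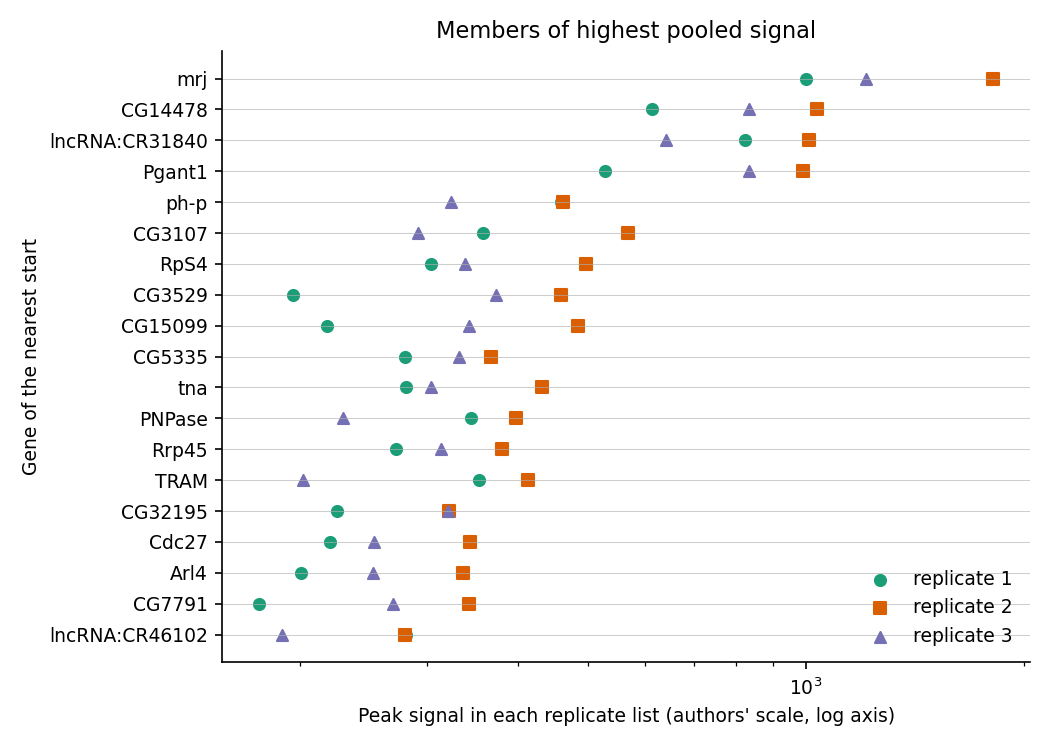
Signal in each replicate list (x axis, authors' scale, log axis) of 19 of the 20 members of highest pooled signal, named by the gene of the nearest start; each point is 1 replicate. The first 4 genes, from mrj to Pgant1, lie above 500 in all 3 replicates, and ph-p is below 500 in each.

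Some members share their interval with other peaks and are not independent of them: 11 members lay in an interval with at least 1 other IDR entry, and 77 (20.8%) had another IDR summit within 1000 bp. At dikar, members 339 bp (signal 560.9) and 114 bp (signal 389.5) from the start lay in the interval 3L, 6742115 to 6745240, which also holds the highest peak of the genome, upstream of both starts. In all, 41 of the 359 genes also had an upstream one-strand peak.

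Within the genes, the members were mostly in 5′ UTR and rarely in coding sequence. The summit was in 5′ UTR in 239 of 370 (64.6%), in an intron in 79 (21.4%), in an exon of a noncoding transcript in 39 (10.5%), in a coding exon in 9 (2.43%), in intergenic sequence in 3 and in 3′ UTR in 1. Coding exons held 305 of the 2643 other downstream candidates (11.5%), so that members were there less often (odds ratio 0.191; exact test, adjusted p = 5.88e-09). In replicates 1, 2 and 3 the coding share was 2.92%, 3.17% and 2.73% of the strongest downstream summits, against 14.5%, 13.2% and 15.1% of the weaker ones. The 9 in coding exons were at Pgant1, PlexB, Sgs3, Polr2K, lace, RpL21, cact, Snr1 and Hrb98DE.

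The share in 5′ UTR was higher than among the other candidates (55.3%; odds ratio 1.48; exact test, adjusted p = 0.0023), and this was lost without replicate 2 (odds ratio 1.21, adjusted p = 0.553) or without replicate 3 (1.18, adjusted p = 0.435). The intron share (20.6% of the other candidates) did not pass (exact test, adjusted p = 0.879). By transcript, 280 members (75.7%) were in the first exon and 77 (20.8%) in the first intron, against 72.3% and 20.1% of the other candidates. Of the 182 members within 100 bp of the start, 169 were in 5′ UTR, and of the 129 beyond 200 bp, 64 were in introns. Beyond 200 bp the intron share was 49.6% for members and 36.3% for the other candidates, a difference that was not tested.

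The start lay inside the peak interval in 239 members (64.6%). Genes were protein-coding for 321 members (86.8%) and for 86.1% of the other candidates. The called share was 12.4% for protein-coding genes and 12.2% for noncoding RNA genes (42 of 345). By chromosome arm, 92 members were on 2R, 81 on 3R, 77 on 3L, 56 each on 2L and X, and 8 on 4. None of the 6 arms passed against the other candidates (Fisher's exact test with Benjamini-Hochberg adjustment, lowest adjusted p = 0.337 for 2R), and 0 of 6 had an unadjusted p under 0.05.

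Known sequence elements were counted within 100 bp of the summit on both strands, against the upstream peaks and against the other downstream candidates. Of 18 motifs, 5 differed from the upstream peaks (27.8%) and 4 from the other candidates (22.2%) after adjustment over both comparisons. The pause button, an element known at promoters with held polymerase, was searched as NCGNNCG with the Ns limited to G or T, A or G, and A or T in turn. It was near 82 of 370 member summits (22.2%) and 76 of 819 upstream summits (9.28%; odds ratio 2.78; exact test, adjusted p = 2.17e-07). The replicates gave 19.8%, 19.5% and 20.2% downstream and 9.39%, 9.44% and 11.1% upstream. It was found in 59 of the 182 members within 100 bp of the start (32.4%), in 6 of 59 beyond that and up to 200 bp, and in 17 of 129 farther in. Against the other downstream candidates (17.0%) it did not pass (exact test, adjusted p = 0.0706), and 15.3% of the windows around all 23697 starts on these arms held it on either strand.

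Base composition and position moved with the comparison of member and upstream summits, and their part in the result was not tested. The G and C content of the windows had a median of 43.3% at member summits, 43.8% at the other downstream candidates and 36.8% at upstream summits. CA repeats (CACACACA) were also more frequent at members, at 9.73% against 4.76% (exact test, adjusted p = 0.0216), and the other downstream candidates held them at 9.76%. Lower shares, by the same exact test, were seen for the TATA box (TATAAA, 24.9% against 35.0%, adjusted p = 0.00845), Ohler motif 5 (CAGCTGNT, N being A or T, 4.32% against 8.42%, adjusted p = 0.0491) and the homeodomain site TAATTA (8.11% against 13.4%, adjusted p = 0.0491). With 1 replicate left out at a time, the CA repeat, Ohler 5 and homeodomain calls were lost each time, and the TATA call was lost without replicate 3 (exact test, adjusted p = 0.296). The shares in windows around all starts were 4.06% for CA repeats, 26.2% for the TATA box, 6.38% for Ohler motif 5 and 9.62% for TAATTA. In windows centred on the starts of members and upstream peaks, CA repeats were at 6.32% and 8.43%. The TATA box, on the gene's strand, was at 12.9% and 11.3%, Ohler motif 5 at 6.04% and 9.86%, and TAATTA at 6.59% and 7.26%. None of these elements passed there (exact test, lowest adjusted p = 0.105, for Ohler motif 5).

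Against the other downstream candidates, TACATGG was more frequent at member summits, at 18 of 370 (4.86%) against 55 of 2643 (2.08%; odds ratio 2.41; exact test, adjusted p = 0.0278). The upstream IDR peaks held it at 5.49% and the windows around all starts at 1.1%. In replicates 1, 2 and 3 the share was 6.49%, 6.07% and 4.62% of the strongest downstream summits and 2.23%, 2.13% and 1.38% of the weaker ones. This sequence was taken from earlier results on the same IDR peaks, so its excess here is not independent evidence. The TATA box (24.9% against 19.1%), Motif 1 (4.86% against 2.31%) and the site of the GAGA factor, searched as GAGAGAG (9.46% against 5.94%), also passed, each at an adjusted p of 0.0491. The upstream IDR peaks held the GAGA factor site at 9.77%, the TATA box at 35.0% and Motif 1 at 2.32%. The GAGA factor and Motif 1 calls were lost with any 1 replicate left out, and the TATA call without replicate 1 or 2. Windows around all starts held Motif 1 at 4.74% and the GAGA factor site at 4.48%.

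The 18 members with TACATGG differed widely, and their median signal and median offset were above those of the other members. Their signal ran from 193.1 to 4011 with a median of 541.4 and exceeded 500 in 9 of them, against a median of 255.2 for the 352 without it, and 8 of the 20 strongest members were among them, including mrj, CG14478, Pgant1, CG3529, CG15099, tna and CG32195. Their median offset was 260.5 bp against 98 bp, with 12 of the 18 beyond 200 bp and 5 within 100 bp. The distance from the middle of the 7 letters to the summit, which the window limits to 100 bp, had a median of 12 bp, and in 12 of 18 it was at most 25 bp. It was 7 bp at mrj, 3 bp at CG14478, 4 bp at Pgant1 and 1 bp at CG15099. The sequence pointed along the gene in 6 and against it in 12. All 3 replicates held 15 of the 18 among their strongest entries and 187 of the 352. The median signal was 155.2, 217.1 and 179.9 in replicates 1, 2 and 3 with it and 75.2, 108.4 and 87.0 without it. These are descriptions, since signal chose the IDR list.

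**Figure D4:**
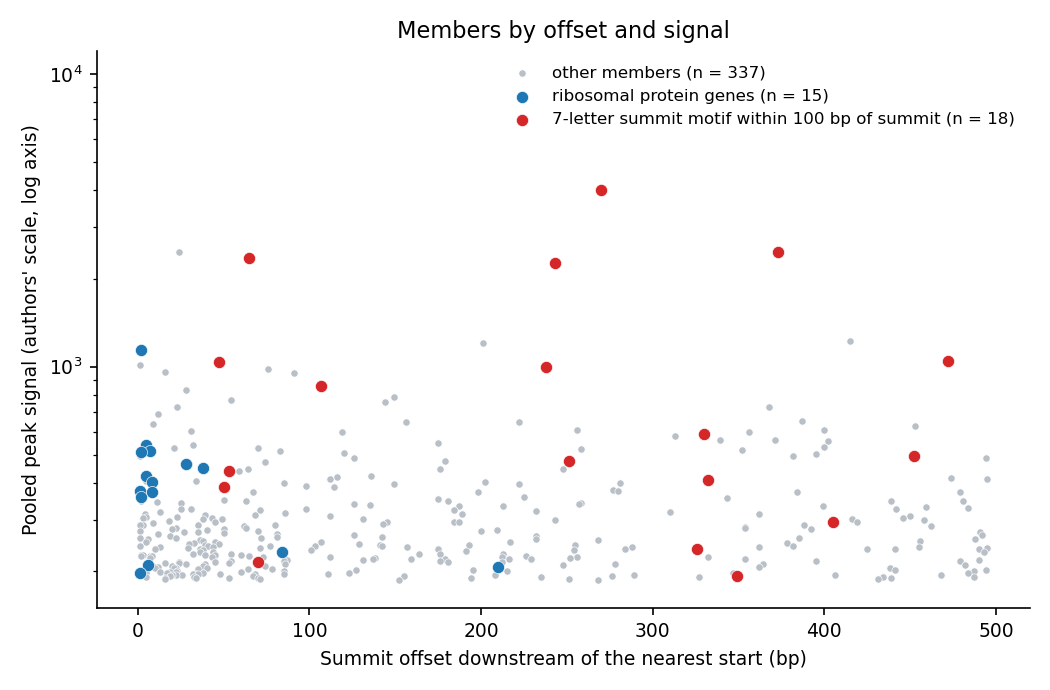
Pooled signal of the members (y axis, authors' scale, log axis) against the offset of the summit from the nearest start (x axis, bp); each point is 1 member. The 18 members with the 7-letter summit motif reach from 193.1 to 4011 and mostly lie beyond 200 bp, and the 15 at ribosomal protein genes mostly lie within 10 bp of the start.

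Motif 1 was placed otherwise. The 18 members with it near the summit had a median offset of 29.5 bp and a median signal of 266.2, and 17 of them had summits within 100 bp of the start. It pointed along the gene in 16 of 18. Its first base was upstream of the start in 12 and at or downstream of it in 6, and within 50 bp of the start in 13. Its middle was a median of 64 bp from the summit, and within 25 bp in 3. Of 8192 7-mers, joined with their reverse complements, 0 (0%) differed in frequency between the member summits and windows centred 500 bp further downstream (exact McNemar tests with Benjamini-Hochberg adjustment, lowest adjusted p = 0.4). An unadjusted p under 0.05 was seen for 420 of the 8192 by this test, 213 of them more frequent at summits and 207 less frequent. Of the 7-mers more frequent at summits, the one of lowest p, GTCACAC, lies within Motif 1 and was at 23 summits and in 4 control windows (exact McNemar test, unadjusted p = 0.000157). It did not pass: by the same test its adjusted p was 0.4, and 0.52 against windows 1000 bp downstream or 500 bp upstream.

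By signal, the first 10 members with GTCACAC were at TRAM (952.1), nmd (688.9), mrj (526.2), Synd (448.0), eEF1alpha1 (405.9), bip1 (379.7), RpS23 (376.4), RpS15 (372.3), Act42A (349.2) and arr (316.8). The mrj peak among them is the one 70 bp from the start, not the strongest. eEF1alpha1 encodes a translation elongation factor, RpS23 and RpS15 ribosomal proteins, and arr a Wnt co-receptor. In 17 of the 23 the letters pointed along the gene.

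Within 100 bp of the starts themselves, each start counted once, 4 of 18 motifs differed from the starts of upstream peaks (22.2%) and 0 (0%) from those of the other downstream candidates, where 6 had an unadjusted p under 0.05. Motif 1 was at 37 of 364 member starts (10.2%) and 30 of 771 upstream starts (3.89%; odds ratio 2.79; exact test, adjusted p = 0.0024). The DNA replication-related element (DRE, NATCGATN with each N an A or a T), bound by the factor DREF, was at 12.6% and 6.49% (exact test, adjusted p = 0.015). Ohler motif 6 (GTATNTTT, N being A or T) was at 11.3% and 6.23% (exact test, adjusted p = 0.0392). The initiator, searched on the gene's strand as TCANTN with the Ns limited to G or T and to C or T, was less frequent, at 31.3% and 40.2% (exact test, adjusted p = 0.0392).

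In the replicates, Motif 1 was at 6.64%, 10.2% and 10.6% of downstream starts and at 3.89%, 4.35% and 3.54% of upstream starts. DRE was at 12.0%, 13.2% and 14.9% against 6.61%, 6.53% and 6.56%. The initiator was at 31.2%, 35.0% and 29.4% against 39.5%, 39.7% and 39.9%. Each of the 3 kept its direction in every replicate, but without replicate 3 none of the 4 calls passed, with an adjusted p of 0.13 for Motif 1 and for DRE. Without replicate 2 the initiator (adjusted p = 0.0737 by the exact test) and Ohler motif 6 (0.42) were lost as well. Of all starts, 4.74% held Motif 1, 9.84% DRE, 7.03% Ohler motif 6 and 35.3% the initiator.

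Genes were grouped by lists of symbols, and a group's share was read against all genes with a one-strand downstream candidate: 359 of 2441 such genes had a member (14.7%), with a median signal of 259.3 over all members. Cytosolic ribosomal proteins had the largest share among the groups with more than 2 such genes. Of their 22 genes with a candidate, 15 had a member (68.2%), with a median signal of 402.3. RpS4 (3L, 13041640 to 13041953) was the strongest, with 303.2, 496.8 and 338.6 in replicates 1, 2 and 3. RpL35A had 155.7, 249.9 and 143.5, and RpL17 had 149.5, 206.0 and 189.7. The order of these genes by pooled signal, 1140, 538.1 and 514.2, held in replicates 1 and 2 but not in replicate 3, where RpL17 was above RpL35A.

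Their summits lay at the start: the median offset was 6 bp, 11 of the 15 were within 10 bp, and the exceptions were RpL7A (28 bp), RpL12 (38 bp), RpL40 (84 bp) and RpL21 (210 bp). Some of these summits were upstream of the start in single replicates. In replicates 1, 2 and 3, RpL39 was at -22, -7 and -10 bp and RpS7 at -8, -4 and 4 bp, while RpS29 stayed at 4, 4 and 1 bp. A TCT initiator lay within 100 bp of the start in all 15 and within 15 bp in 12, and 14% of all starts had one on their strand within 100 bp. Genes of this group are known for this initiator, and those without a member were not compared, so its link to the peaks was not tested. Over all members, 20.1% of starts held the TCT initiator, against 17.4% of upstream starts (exact test, adjusted p = 0.539). The starts of the other downstream candidates held it at 15% (exact test, adjusted p = 0.0747), and neither comparison passed. Of the 15, 11 were found in all 3 replicates. Another 24 ribosomal protein genes had an upstream one-strand peak and 31 a peak between starts on both strands, counts that may share genes with each other and with the 15. This gene group was known from earlier results on the same peaks to be bound, so the count is no independent evidence.

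Translation factors had a member in 5 of 12 genes (41.7%): eEF2 (signal 525.6, 21 bp), eEF1alpha1 (405.9, 5 bp), eEF5 (291.5, 9 bp), eIF4G1 and eIF3c. Mitochondrial ribosomal proteins had a member in 0 of 3. Neither V-ATPase subunits (0 of 7), which form a proton pump, nor cell cycle regulators (0 of 6) had one. These small groups were not tested. An upstream one-strand peak was at 6 cell cycle genes and 1 V-ATPase gene, and a peak between starts on both strands at 1 and 2. Proteasome subunits had a member in 0 of 1, and no aminoacyl-tRNA synthetase gene had a one-strand downstream candidate. Oxidative phosphorylation subunits had 2 of 12, ATPsynC (288.0 at 80 bp and 284.0 at 354 bp) and COX7AL2 (239.2), and chaperones 2 of 9, DnaJ-1 (223.3) and Hsp110 (194.5).

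Genes of the cytoskeleton had a member in 11 of 20 (55%), with a median signal of 246.7 and a median offset of 36 bp. The strongest were alphaTub84B, an alpha-tubulin gene (407.9, and 98.1, 175.5 and 146.4 in replicates 1, 2 and 3), sqh, which encodes the myosin regulatory light chain (401.3, and 121.5, 168.8 and 124.5), and Act42A (349.2, and 78.9, 172.8 and 87.9). The other members were at capu, jar, Act5C, chic, ena, shot, betaTub56D and ctp.

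Polycomb and Trithorax group genes, whose products keep genes repressed or active, had a member in 8 of 14 (57.1%), with a median offset of 177.5 bp. They were ph-p (1226), ph-d (241.8), Utx (238.1), trx, Su(z)2, kis, Snr1 and Psc. The ph-p and ph-d genes are neighbouring copies of each other, and how reads from sequence they share were placed is not stated. The ph-d peak was found in 2 replicates and had a signal of 16.6 in replicate 1, against 133.0 and 55.8 in the others. The Utx peak (67.4, 61.4 and 111.9) was also found in 2.

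Segmentation and patterning transcription factors, which set up the body plan of the embryo, had a member in 0 of 17 genes with a candidate. The share over all such genes was 14.7%, and the difference was not tested. Signalling groups were near or below the share of all genes or rested on a single gene: Ras and receptor tyrosine kinase signalling had 1 of 12 (aop, 204.3), Wnt and Hedgehog signalling 1 of 10 (arr, 316.8), the Notch pathway 1 of 5 (the receptor gene itself), and insulin and TOR signalling 1 of 4 (Pdk1, 288.5). Splicing and RNA-binding proteins had 4 of 15, Rm62 (249.6), mub (207.6), Sxl (194.1) and Hrb98DE (192.5). RNA polymerase II and general factors had 1 of 8 (Polr2K, 223.8), insulator proteins 1 of 7 (CTCF, 280.7), and ecdysone response genes and nuclear receptors 1 of 6 (Eip75B, 439.1).

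Among genes of small RNAs, tRNA genes had a member in 1 of 42 (2.38%), tRNA:Ala-TGC-2-1 at 490 bp, which is beyond the transcript. snRNA genes had 3 of 9, snRNA:7SKa (522.3), snRNA:U5:63BC (217.0) and snRNA:U4:39B (215.1), and snoRNA genes 2 of 8, snoRNA:Me28S-A1322 (548.8, at 175 bp and also beyond the transcript) and snoRNA:Psi18S-176 (348.1). Pseudogenes had 1 of 6, CR33222 (279.7). Noncoding RNA genes, most of them long noncoding RNAs, had 42 of 313 (13.4%), with lncRNA:CR31840, lncRNA:CR46102 and lncRNA:CR44676 (729.4) the strongest. Their median offset of 269 bp was above that of all members.

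**Figure D5:**
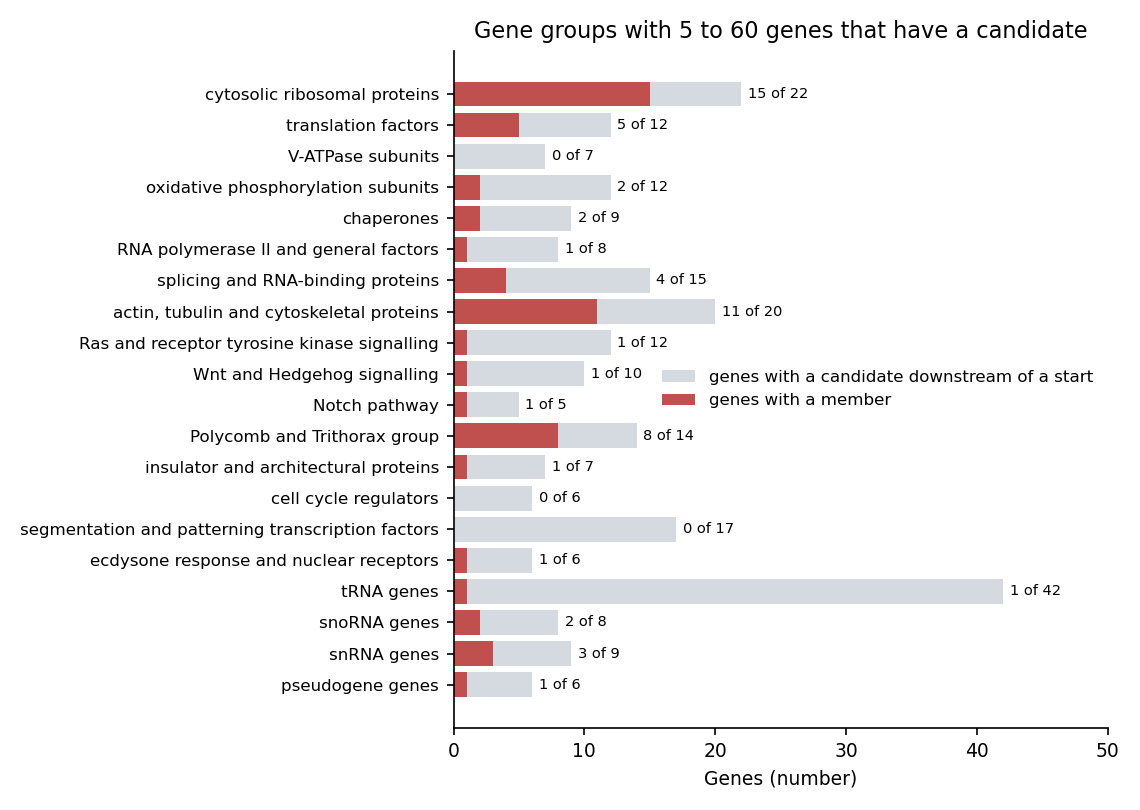
Number of genes in each group (x axis) with a candidate downstream of a start (grey) and with a member (red), for groups with 5 to 60 such genes. Cytosolic ribosomal proteins (15 of 22), cytoskeletal proteins (11 of 20) and the Polycomb and Trithorax group (8 of 14) have the highest shares, and patterning transcription factors have 0 of 17. These shares were not tested.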

How the data were processed

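The authors deposited lists of peaks with a signal value each, 1 candidate list per replicate, 1 for pooled replicates and the IDR list, on dm6 per the labels; the aligner, peak caller and scale are not given in the labels used here. No p-value or read count was used. Starts came from Ensembl release 115, without transposable element records (23779 starts of 18358 genes); against RefSeq, 99.9% of 13948 protein-coding genes with the same symbol had identical coordinates. Coordinates are 1-based. Of 2 starts at equal distance, which occurred for 2 members, the one the summit is downstream of was used. Sequences came from the RefSeq copy of the assembly (Release 6). A replicate's peaks were taken to be its 3314 entries of highest signal, and a member's replicate value is that of the nearest candidate within 250 bp. A member counted as found where any of those 3314 entries lay within 250 bp, which need not be the entry that gave its value. Comparisons of shares used Fisher's exact test, two-sided, in Python 3.11.15 (scipy 1.17.1, numpy 2.4.6, pandas 2.3.3), with Benjamini-Hochberg adjustment within the 6 annotation classes, the 6 arms, the 36 motif tests at summits and those at starts, at 0.05. The code was tested on simulated data. Where annotations overlapped, 5′ UTR took precedence, then coding exons, then 3′ UTR, then exons of noncoding transcripts. Members, lists, motifs and tests were chosen with earlier results of these data known. Genes named are the 20 members of highest signal (1 of which is not reported here), up to 3 per list (further ones were named after their values were seen), the 3 at each side of 500 bp, and up to 10 with GTCACAC, the 7-mer of lowest p among those more frequent at summits, though no 7-mer passed. Alternatives left out replicates, kept protein-coding starts, measured the other-strand rule from the start, kept 1 entry per interval, used the 1657 strongest IDR peaks, or changed windows, distances and controls.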

Additional observations from a re-analysis of the deposited data

How the results depend on the processing

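The lower called share downstream kept its direction and passed under all its alternatives (odds ratio 0.461 to 0.606), as did the deficit in coding exons and the pause button at summits against upstream peaks under theirs. In windows centred on the starts, the pause button did not pass against upstream peaks. TACATGG against the other candidates also passed under all of its own. It was taken from earlier results on the same peaks, which every alternative reused, so this is no independent evidence. With the 1657 strongest IDR peaks, the excess within 100 bp had an odds ratio of 1.39 (Fisher's exact test, p = 0.0531), presence in all 3 replicates one of 0.673 (p = 0.348), and 1 annotation class passed instead of 2. Leaving out each replicate gave 1 to 2 annotation classes, 3 motif calls at summits each time against 9, 0 to 7 at starts against 4, and odds ratios of 0.542 to 0.876 for presence in the replicates. Motif calls at summits were 5 with protein-coding starts, 4 with the other-strand rule measured from the start, and 5 with windows of 50 bp on each side; at starts they were 2 with 1 entry per interval. At starts, the initiator call was also lost with protein-coding starts, Ohler motif 6 and DRE with windows of 50 bp on each side, and the initiator and Ohler motif 6 with the other-strand rule measured from the start. The cause was not tested, though fewer peaks entered when replicates or entries were left out. The 7-mers that passed were 5 against windows 1000 bp downstream (among them ACACGCG, named after its value was seen) all 5 more frequent at summits, and 16 against windows 500 bp upstream, 12 of them less frequent at summits and 4 more frequent. The log2 ratio of median signal was -0.093 with 1657 entries per replicate. No result reversed. With 1 group, there was no replicate block between groups to fit. Setting a replicate aside only filters a list called on all 3, depth is unknown, and peaks of 1 gene or interval are not independent.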
